A study of Homo sapiens with 12 samples.

Results

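ACTL8, AJAP1, DDC, ARHGAP6 and VSIR, 5 of the 58735 genes in the count table, were chosen by name as the genes lowered with most certainty by AG-205 in HEC-1A cells. In the edgeR fit used here they were the 5 genes with the smallest p among those with a lower level in that line. The genes were thus selected on their measured HEC-1A values, so the HEC-1A values below are a description and carry no test, whereas the stromal line T-HESC was not used in the choice. RNA sequencing was done on 12 libraries in 4 groups of 3: HEC-1A, a human endometrial adenocarcinoma line of epithelial type, and T-HESC, a human endometrial stromal line immortalised with telomerase, each exposed for 32 h to 15 µM AG-205 or to DMSO, the solvent in which AG-205 was diluted. The compound is marketed for binding and blocking PGRMC1, a membrane protein, but the study concludes that it is not specific for PGRMC1. All 4 groups were grown in the same medium without phenol red. Each line is a single culture-adapted line and neither holds the mixed cells of endometrial tissue.

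The 5 genes belong to unrelated families. ACTL8 encodes actin-like protein 8, a member of the actin superfamily known as a cancer-testis antigen, a class of proteins usually found in the testis and in tumours. AJAP1 encodes a single-pass membrane protein of adherens junctions, the cadherin-based contacts that hold epithelial cells together. DDC encodes aromatic L-amino acid decarboxylase, which needs pyridoxal phosphate and makes dopamine from L-DOPA and serotonin from 5-hydroxytryptophan. ARHGAP6 encodes a GTPase-activating protein that switches off the small GTPase RhoA and takes part in remodelling actin. VSIR encodes VISTA, a membrane protein of the B7 family that restrains T cells and is best known on myeloid cells.

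On GRCh38 with the GENCODE 44 annotation, ACTL8 (ENSG00000117148) lies at chr1:17755333-17827063 on the plus strand and AJAP1 (ENSG00000196581) at chr1:4654609-4792534 on the plus strand. DDC (ENSG00000132437) lies at chr7:50458436-50565405, ARHGAP6 (ENSG00000047648) at chrX:11117651-11665920 and VSIR (ENSG00000107738) at chr10:71747556-71773520, all on the minus strand. VSIR lies inside CDH23, which runs on the opposite strand, shares no exon base with it and had 0 to 6 counts per library. ARHGAP6 holds AMELX and a pseudogene on the opposite strand, and HCCS, also on the opposite strand, overlaps its edge. None of these shares an exon base with it. DDC shares 114 exon bases (3.70% of its exon length) with the antisense gene DDC-AS1, which had 0 counts in all 12 libraries.

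The start regions of the genes are shown so that the promoters of genes from unrelated families can be compared by their letters. The windows hold 250 bases before and 50 bases from the annotated start, read 5′ to 3′ on the gene's strand from RefSeq on GRCh38.p14, and all 5 genes matched. Capitals mark letters of the motifs searched. The ACTL8 window is chr1:17755083-17755382 on the plus strand, the DDC window at its upstream start is chr7:50565356-50565655 on the minus strand, the AJAP1 window is chr1:4654359-4654658 on the plus strand and the VSIR window is chr10:71773471-71773770 on the minus strand.
ACTL8: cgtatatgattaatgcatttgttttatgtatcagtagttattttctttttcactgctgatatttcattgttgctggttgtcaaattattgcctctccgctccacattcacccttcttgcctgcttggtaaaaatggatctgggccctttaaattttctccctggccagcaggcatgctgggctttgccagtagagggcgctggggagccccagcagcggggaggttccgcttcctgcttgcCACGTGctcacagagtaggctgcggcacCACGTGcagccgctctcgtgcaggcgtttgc
DDC: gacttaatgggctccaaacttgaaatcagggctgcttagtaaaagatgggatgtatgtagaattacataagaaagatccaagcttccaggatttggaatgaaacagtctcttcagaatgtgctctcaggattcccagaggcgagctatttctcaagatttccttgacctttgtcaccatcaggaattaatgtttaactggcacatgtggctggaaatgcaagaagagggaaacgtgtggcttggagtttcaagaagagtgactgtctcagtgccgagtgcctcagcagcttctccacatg
AJAP1: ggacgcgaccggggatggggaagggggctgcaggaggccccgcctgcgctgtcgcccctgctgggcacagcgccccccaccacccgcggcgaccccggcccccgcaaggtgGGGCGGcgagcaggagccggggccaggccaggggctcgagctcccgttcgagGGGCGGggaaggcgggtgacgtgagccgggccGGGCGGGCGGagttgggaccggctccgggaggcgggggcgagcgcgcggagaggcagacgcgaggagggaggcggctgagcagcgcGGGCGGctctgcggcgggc
VSIR: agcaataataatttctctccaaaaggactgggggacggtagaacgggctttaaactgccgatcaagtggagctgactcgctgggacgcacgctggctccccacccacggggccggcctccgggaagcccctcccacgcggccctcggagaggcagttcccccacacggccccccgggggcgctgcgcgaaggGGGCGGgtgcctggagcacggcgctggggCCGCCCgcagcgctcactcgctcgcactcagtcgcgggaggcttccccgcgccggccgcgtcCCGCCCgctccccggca

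The windows differed in base composition. The AJAP1 window had 80.7% GC and 40 CpG dinucleotides, and 2.06% of the 35116 RefSeq windows had at least that GC content. VSIR had 72.0% GC and 35 CpG, ARHGAP6 had 59.3% and 17, and ACTL8 had 51.3% and 11. DDC had 3 CpG in each of its windows, with 44.3% GC at the upstream start and 57.3% at the other start. Over all windows the medians were 58.7% GC and 14 CpG. Thus 2 windows were CpG-rich, and both DDC windows were CpG-poor.

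The motifs below were searched on both strands, chosen after the sequences had been seen: TATAAA (in 11.5% of all windows), CCAAT (34.6%), the GC box GGGCGG (45.0%), the E-box CACGTG (7.26%), the cyclic AMP element TGACGTCA (1.85%), the AP-1 site, TGA and TCA with any base between (7.71%) and the sterol element TCACNCCAC (1.13%). ACTL8 held 2 CACGTG matches, which begin 9 bases before and 19 bases after the start base. AJAP1 held 5 GC boxes, 2 of which overlap, VSIR held 3 and ARHGAP6 held 1. DDC held 1 CCAAT match, in the window not printed. No motif was held by all 5 genes, and TATAAA, TGACGTCA, the AP-1 site and TCACNCCAC were in none of the 6 windows. A match here is a run of letters and was not tested as a binding site.

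Libraries held 7168542 to 15178276 counts assigned to genes. Replicates spread less in HEC-1A, where the common biological coefficient of variation was 10.1%, than in T-HESC, where it was 33.6%. Pairs of T-HESC libraries given AG-205 stood farthest apart, with a chi-square per degree of freedom of 64.5 to 207, against 1.79 to 15.4 among the HEC-1A pairs. Marker sums were higher in the line of their type. The 8 epithelial markers summed to 1734 to 1939 CPM (counts scaled to library size) in HEC-1A with DMSO. In T-HESC they summed to 207 to 301 CPM with DMSO and 191 to 344 CPM with AG-205. Most of this was KRT18, KRT19 and KRT8 (DMSO means 136, 93.2 and 28.7 CPM), and KRT19 was at 114 CPM in HEC-1A with DMSO. EPCAM, CLDN3, CLDN7 and ESRP1 had T-HESC DMSO means of 1.17 CPM or less. The 8 stromal markers summed to 14902 to 23723 CPM in T-HESC with DMSO but 9.67 to 16.8 CPM in HEC-1A over both treatments. The 5 endothelial markers summed to at most 0.281 CPM in HEC-1A, and in T-HESC to 33.9 to 77.8 CPM, nearly all of it TEK (AG-205 mean 57.4 CPM, DMSO mean 58.2 CPM), while PECAM1, VWF, CDH5 and KDR had means of 0.654 CPM or less. In HEC-1A the epithelial markers were higher with AG-205, at 2644 to 2680 CPM, with 5 of 8 higher at an adjusted p under 0.05 by edgeR, as were 7.35% of all genes. With the fold limit 2 of the 8 were called higher, the keratin gene KRT19 and the tight junction gene CLDN4. Their part in the results below was not tested. In bulk libraries, fewer cells of a type and less RNA per cell cannot be told apart.

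In HEC-1A the level of all 5 genes was lower in every AG-205 library than in every DMSO library, and the AG-205 means were 2.19 to 3.15 times lower than the DMSO means in the fit. The rule fixed this direction. As background, 29 of 14122 genes tested (0.205%) were called lower in HEC-1A by the edgeR quasi-likelihood test, with an adjusted p under 0.05 and log2 fold change below -1, and 14.9% of genes had all AG-205 libraries below all DMSO libraries. Called higher were 364 genes (2.58%). Without AG-205 replicate 3 the number called lower was 46.

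ACTL8 showed the largest fold change of the 5. Its level was 23.7, 24.4 and 20.6 CPM in the 3 DMSO libraries and 7.61, 6.22 and 8.14 CPM with AG-205. The groups did not overlap, and the lowest DMSO library was 2.53 times the highest AG-205 library. The log2 fold change was -1.66 (SE 0.144, n = 3 per group), from a mean of 22.9 ± 2.05 (SD) to 7.32 ± 0.992 CPM. ACTL8 also had the fewest reads, with 59 to 98 counts per library with AG-205 and 200 to 269 with DMSO, so that it rests on the least depth of the 5.

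VSIR followed in size of change. In HEC-1A it was at 57.5, 47.8 and 48.6 CPM with DMSO and at 22.8, 16.6 and 21.9 CPM with AG-205. AG-205 replicate 2 was the lowest library, and the groups did not overlap. The log2 fold change was -1.33 (SE 0.135), from 51.3 ± 5.34 to 20.4 ± 3.39 CPM.

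AJAP1, the junction protein, was at 85.7, 99.6 and 86.4 CPM with DMSO and at 44.2, 37.1 and 34.9 CPM with AG-205. Its AG-205 libraries kept 38.5% to 48.9% of the DMSO mean, with no overlap. The log2 fold change was -1.22 (SE 0.113), from 90.5 ± 7.82 to 38.8 ± 4.88 CPM.

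ARHGAP6 had the tightest controls, at 38.3, 38.8 and 39.3 CPM with DMSO. With AG-205 it was at 18.2, 18.5 and 14.9 CPM. Every AG-205 library was at 47.6% of the DMSO mean or less, and the log2 fold change was -1.16 (SE 0.113), from 38.8 ± 0.473 to 17.2 ± 2.00 CPM.

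DDC, the amine-forming enzyme, was at 105, 101 and 100.3 CPM with DMSO and at 48.9, 40.2 and 51.3 CPM with AG-205. The lowest DMSO library was 1.95 times the highest AG-205 library. The log2 fold change was -1.13 (SE 0.105), from 102 ± 2.85 to 46.8 ± 5.87 CPM.

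**Figure D1:**
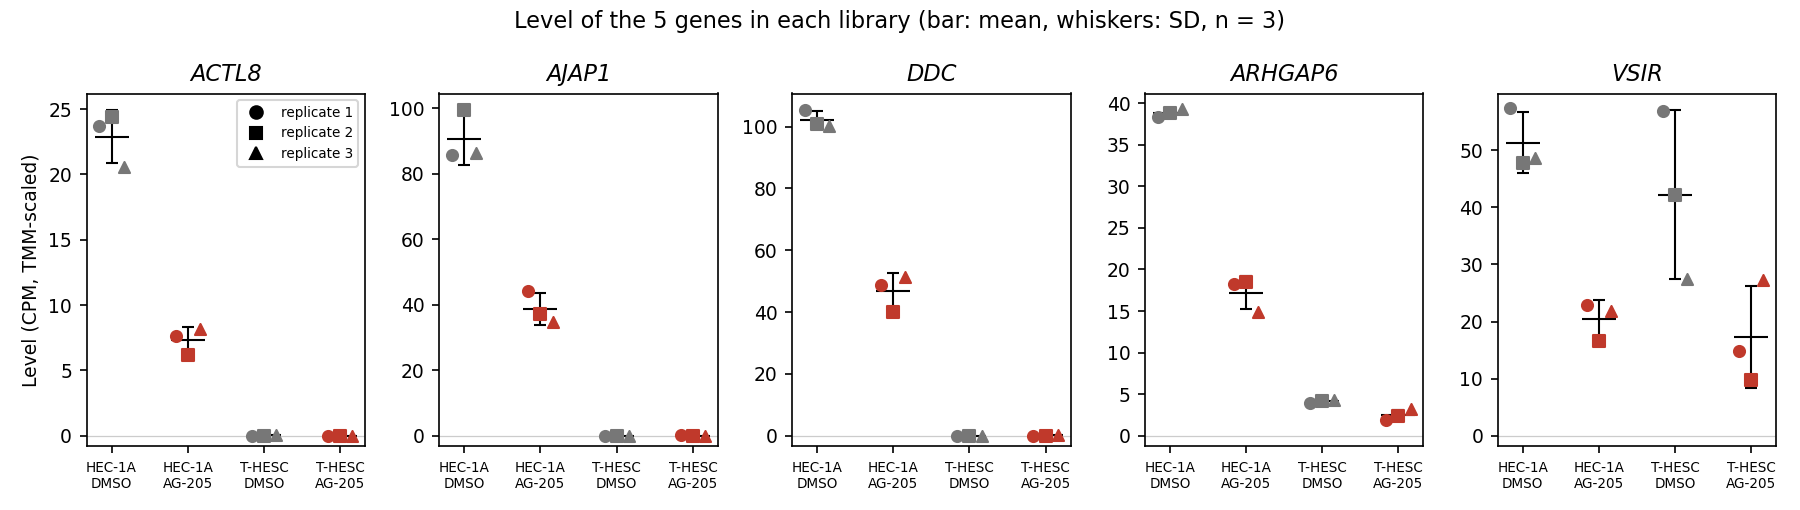
Level of each of the 5 genes in every library, in CPM scaled within each cell line, with 1 point per library, a bar at the group mean and whiskers for the SD (n = 3); grey is DMSO, red is AG-205 and shapes give the replicate. In HEC-1A the AG-205 points of each gene lie below its DMSO points, and in T-HESC ACTL8, AJAP1 and DDC lie at or near 0.

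The share of the level that remained varied among the 5 genes. The AG-205 libraries of ACTL8 kept 27.2% to 35.5% of its DMSO mean, those of DDC kept 39.3% to 50.2% and those of VSIR kept 32.3% to 44.5%. The ranges of VSIR, AJAP1, DDC and ARHGAP6 overlapped with each other. ACTL8 overlapped with VSIR but lay below all libraries of AJAP1, DDC and ARHGAP6. No single replicate was lowest throughout, since AG-205 replicate 2 was lowest for ACTL8, DDC and VSIR and replicate 3 for AJAP1 and ARHGAP6.

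**Figure D2:**
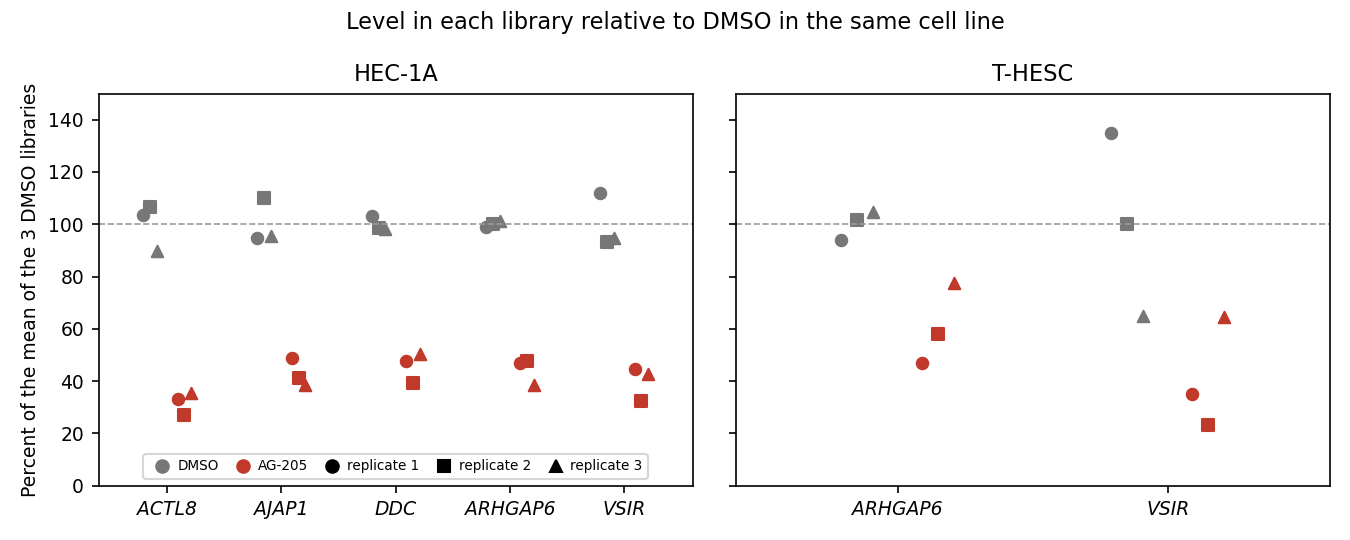
Level in each library as a percent of the mean of the 3 DMSO libraries of the same line (vertical axis), for the 5 genes in HEC-1A and the 2 genes tested in T-HESC; colours give the treatment and shapes the replicate number. HEC-1A AG-205 libraries sit between 27.2% and 50.2%, while VSIR in T-HESC runs from 23.3% to 64.6% with AG-205 and from 64.9% to 135% with DMSO.

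Per length of exon, DDC was the most abundant of the 5 in HEC-1A, at 33.1 ± 0.923 RPKM, the unit of reads scaled to library size and exon length, with DMSO. ACTL8 followed at 12.4 ± 1.11 RPKM and VSIR at 9.96 ± 1.04 RPKM, 2 neighbours in the order whose libraries met at 11.2 RPKM. AJAP1 was at 7.23 ± 0.625 and ARHGAP6 at 4.36 ± 0.0532 RPKM. With AG-205 the level of DDC was 15.2 ± 1.90 RPKM, and ACTL8 (3.97 ± 0.538), VSIR (3.97 ± 0.658) and AJAP1 (3.09 ± 0.389) lay close together, and the libraries of each overlapped with those of the other 2. ARHGAP6 remained lowest at 1.93 ± 0.225 RPKM.

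At the edge of the choice, VSIR was the last gene taken (edgeR adjusted p = 4.44e-05, a selection value), and TNFAIP2, a gene induced by tumour necrosis factor, was the first left out (edgeR adjusted p = 5.70e-05, log2 fold change -1.05). TNFAIP2 fell from 193 to 92.8 CPM. The other genes next in order were ARHGAP23 (log2 fold change -1.07), whose reads may be split with its pseudogene ARHGAP23P1, the orphan receptor GPRC5B (-1.06), ANKRD2 (-1.57), the receptor phosphatase PTPRD (-1.02), TM4SF4 (-2.39), the matricellular protein CCN2 (-1.16), the Wnt ligands WNT7B (-1.19) and WNT10B (-1.11), and ANKRD33B (-1.02). Thus the choice by p left out genes with larger fold changes, TM4SF4 among them, at 4.49 CPM with DMSO and 0.872 CPM with AG-205.

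T-HESC gave the test that was independent of the choice. ACTL8 had 0 counts in 5 of the 6 libraries and 1 in the other, AJAP1 had 0 to 2 and DDC 0 to 4 counts per library. These 3 genes were at or near the limit of 3 counts, failed the filter on low counts and were given no fold change. A count of 0 allowed a level of up to 0.194 to 0.260 CPM in these libraries and covers counting error only. Thus 2 of the 5 genes, ARHGAP6 and VSIR, were tested in T-HESC. By edgeR 0 of these 2 were called, beside 0 of 13753 genes called lower (0.0%) and 11 called higher (0.08%), and by DESeq2 also 0, beside 21 genes called lower. With 1 library left out, 0 to 3 genes were called lower by edgeR, reaching 3 without AG-205 replicate 1, and 0 to 69 higher, 69 without that library. At an unadjusted p under 0.05, 1 of the 2, VSIR, was lower, beside 1.8% of all genes tested in that direction and 3.58% in the other.

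VSIR in T-HESC was at 56.9, 42.2 and 27.4 CPM with DMSO and at 14.8, 9.84 and 27.2 CPM with AG-205. The groups nearly touched, since DMSO replicate 3 was 1.005 times AG-205 replicate 3. The lowest DMSO library was still above the highest AG-205 library, as for 5.29% of genes tested in T-HESC. The fold change on the log2 scale, -1.29 with an SE of 0.423 (adjusted p = 0.647 by edgeR), was a change in mean from 42.2 ± 14.8 to 17.3 ± 8.96 CPM and did not pass the threshold. Without the filter on low counts it did, at -1.30 (edgeR adjusted p = 0.0168). In that setting 36 of 29303 genes were called lower in T-HESC, against 0 in the main fit. VSIR itself had 152 to 864 counts per library. In the main fit, 0.538% of genes tested in T-HESC had a log2 fold change as low as that of VSIR. Of 8 immune cell markers, 3 were tested in T-HESC, on 1 to 25 counts per library, and 0 were called by edgeR or DESeq2, with 2 lower at an unadjusted p under 0.05, where 1.8% of all genes were. The 8 genes summed to 2.60 to 4.09 CPM with DMSO and 1.30 to 1.86 CPM with AG-205, PTPRC was at 1.25 and 0.332 CPM (log2 fold change -1.92, adjusted p = 0.664), and the T cell gene CD3E was at 0 counts. The part of these markers in the VSIR value was not tested.

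ARHGAP6 in T-HESC was at 3.89, 4.20 and 4.33 CPM with DMSO and at 1.94, 2.40 and 3.21 CPM with AG-205, from 24 to 59 counts per library. All AG-205 libraries were below all DMSO libraries, as for 5.29% of genes tested in T-HESC. Its log2 fold change of -0.71 had an SE of 0.324 (adjusted p = 0.961 by edgeR), and 3.46% of genes had one as low. Whether the change of ARHGAP6 or VSIR differed between the lines was not tested, because the HEC-1A side chose the genes.

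The lines differed in which of the 5 genes they expressed. Without AG-205, the ratio of summed scaled counts in HEC-1A to T-HESC was 1.18 for VSIR (95% exact interval 1.10 to 1.26) and 9.41 for ARHGAP6 (8.00 to 11.1). It was 926 for ACTL8 (166 to 36629.6), 3657 for AJAP1 (656 to 144494) and 2059 for DDC (569.6 to 17012), each resting on 1 or 2 T-HESC counts. The intervals cover counting error only, and the DMSO libraries of VSIR overlapped between the lines. Scaling factors were estimated within each line and not between the lines, so the VSIR ratio does not rank the lines.

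**Figure D3:**
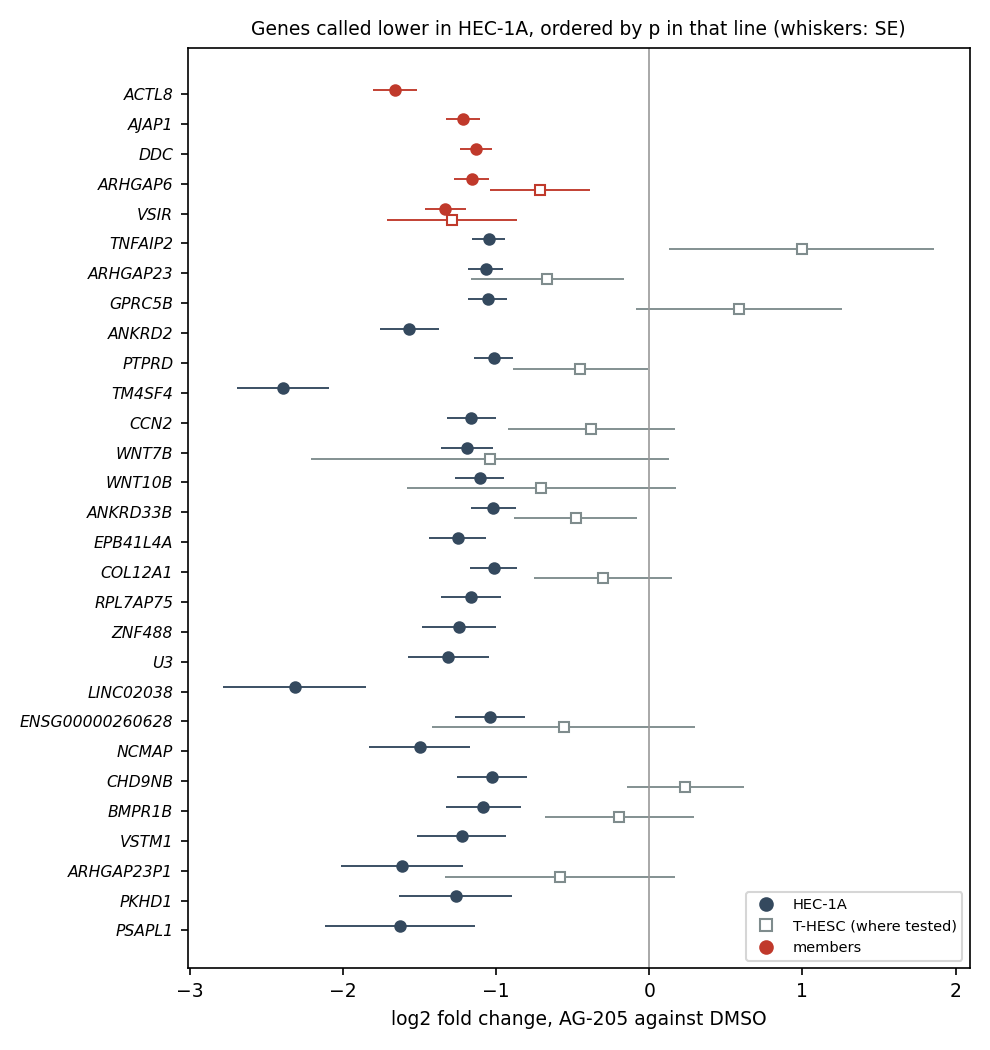
Log2 fold change (horizontal axis) of the 29 genes called lower in HEC-1A, with filled circles for HEC-1A, open squares for T-HESC where the gene was tested, whiskers for the standard error and red for the 5 genes described here. Squares are missing for 14 genes, and 12 of the 15 squares lie under 0.

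Among all 29 genes called lower in HEC-1A, 15 were tested in T-HESC and 12 of these had a log2 fold change under 0, where 47.6% of all genes did. The 2 with all AG-205 libraries below all DMSO libraries were ARHGAP6 and VSIR, where 5.29% of all genes tested in T-HESC had this. The VSIR groups nearly touched. The other 13 tested genes had a median log2 fold change of -0.45 in T-HESC, beside 0.02 for all genes, with TNFAIP2 at 1.00 and WNT7B at -1.04, and 0 of these 13 were called by edgeR or DESeq2 or had an unadjusted p under 0.05.

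Genes related to the 5 were examined by lists. Of 23 other genes for making and clearing aromatic amines, 11 were tested in HEC-1A and 0 were called by edgeR or DESeq2, with 0 lower and 2 higher at an unadjusted p under 0.05, where 11.5% and 14.6% of all genes were. Their median log2 fold change was 0.02, beside 0.01 for all genes tested. GCH1, which starts the synthesis of the cofactor tetrahydrobiopterin, was at 0.36 and PDXK, which makes pyridoxal phosphate, at 0.30. In T-HESC 8 were tested and 0 called by either tool, with 0 lower and 1 higher at an unadjusted p under 0.05.

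Of 14 other adherens junction genes, 12 were tested in HEC-1A and 0 were called by edgeR or DESeq2, with 1 lower at an unadjusted p under 0.05. That 1, NECTIN2, an adhesion molecule, also passed an adjusted p of 0.05 without the fold limit, at -0.41 (adjusted p = 0.0135), while 4.28% of all genes passed so in that direction. E-cadherin, CDH1, was at 0.07 and β-catenin, CTNNB1, at -0.13. The median of the list was -0.09. T-HESC gave 11 tested genes, 0 called by either tool, 0 at an unadjusted p under 0.05 and a median of -0.17.

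Of 25 other actins and actin-related genes, 15 were tested in HEC-1A and 0 were called by edgeR or DESeq2, with 2 lower at an unadjusted p under 0.05 and a median of -0.05. ACTL6A, a subunit of chromatin remodelling complexes, passed without the fold limit at -0.38 (adjusted p = 0.0209), and the cytoplasmic actins ACTB and ACTG1 were at -0.18 and -0.04. In T-HESC 16 were tested and 0 called by either tool, with 4 lower at an unadjusted p under 0.05, beside 1.8% of all genes. These were ACTG2 (-1.89), ACTA2 (-1.54), ACTG1 (-0.78) and ACTB (-0.72). The AG-205 and DMSO libraries of ACTG2 and ACTA2 overlapped. Of 20 other cancer-testis genes, 10 had 0 counts in all libraries and 3 were tested in HEC-1A, with 0 called by either tool and 0 at an unadjusted p under 0.05. PRAME was at 0.00 on the log2 scale, PBK at -0.24 and CT45A1 at -0.35. In T-HESC PBK alone was tested, at 0.28.

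Of 12 other B7 family genes and VISTA ligands, 3 were tested in HEC-1A and 0 were called by either tool or had an unadjusted p under 0.05, CD276 at 0.23, ICOSLG at -0.25 and NCR3LG1 at -0.23. In T-HESC 6 were tested and 0 called by edgeR, with 2 higher at an unadjusted p under 0.05, as were 3.58% of all genes. Their median log2 fold change was 0.03, beside 0.02 for all genes, and 3 of the 6 were under 0. NCR3LG1 was at 2.04 (edgeR adjusted p = 0.357) and was called higher by DESeq2, CD276 was at 0.66 and CD274, a ligand of PD-1, at 0.21. PDCD1LG2, the other ligand of PD-1, was at -0.32, LGALS9 at -1.19 and SELPLG at -0.14. CD80, CD86 and IGSF11 had 0 counts.

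**Figure D4:**
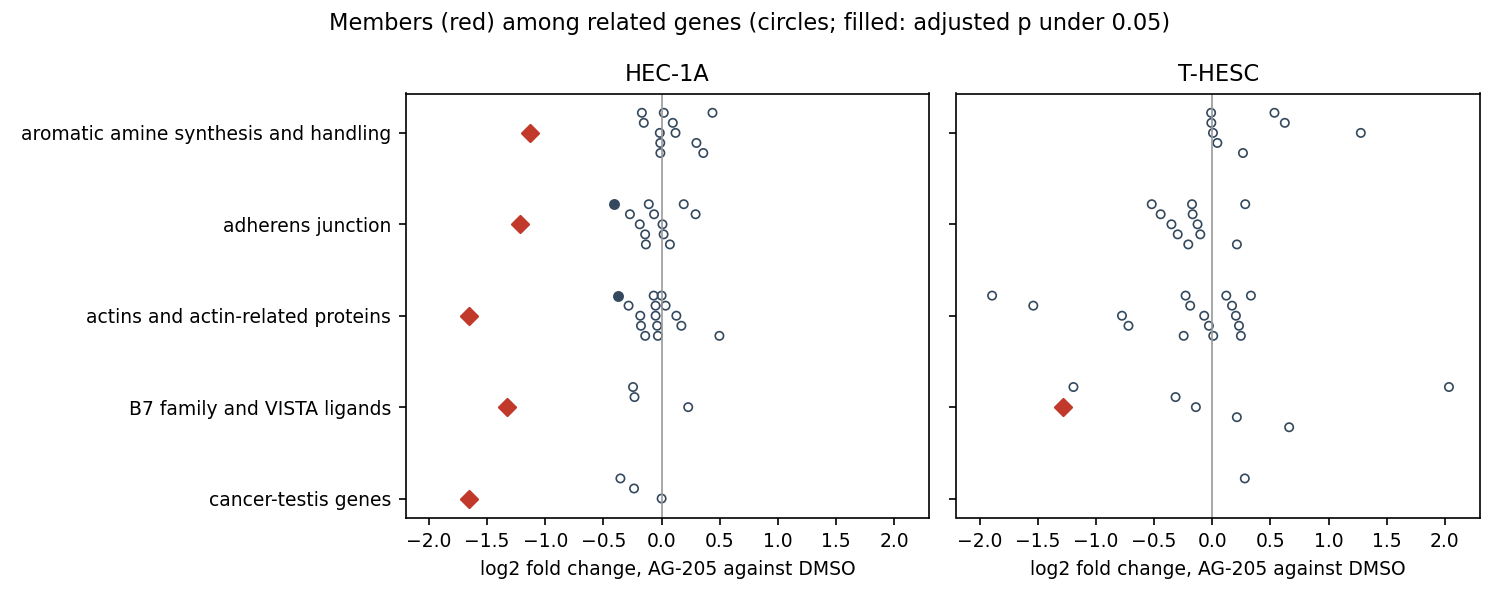
Log2 fold change (AG-205 against DMSO) of the tested genes in the 5 gene lists, in HEC-1A and T-HESC, with red diamonds for DDC, AJAP1, ACTL8 and VSIR, circles for the related genes and filled circles for an adjusted p under 0.05. In HEC-1A the chosen genes lie below -1, while the list medians run from -0.24 to 0.02.

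The expressed genes nearest to the 5 on the chromosome were examined in the same fit. Their distances ran from 0 kb for HCCS, which overlaps ARHGAP6, to 4454 kb for EGFR, which lies after DDC. Of the 30 nearest expressed genes, 3 on each side, 0 were called lower in HEC-1A by edgeR or DESeq2, beside 0.205% of all genes, and 1 was called higher, PADI3 (log2 fold change 2.12, adjusted p = 1.61e-07), a peptidyl arginine deiminase gene 471 kb from ACTL8. At an unadjusted p under 0.05, 4 were lower and 5 higher, where 11.5% and 14.6% of all genes were. Their median log2 fold change was -0.03 and 17 of the 30 were under 0, beside 49.1% of all genes. Without the fold limit, 5 of the 30 passed an adjusted p of 0.05 by edgeR, where 4.28% of all genes were lower and 7.35% higher. KLHDC7A, 654 kb from ACTL8 (-0.67, adjusted p = 0.0143), and FIGNL1, near DDC (adjusted p = 0.0234), were lower. PADI3, UPP1 (2350 kb from DDC) and COBL (451 kb from DDC) were higher. HCCS, a haem lyase gene whose span overlaps that of ARHGAP6, was at -0.03. PSAP, 42.8 kb from VSIR, was at 0.20 and FIGNL1, 8.05 kb from DDC, at -0.38.

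**Figure D5:**
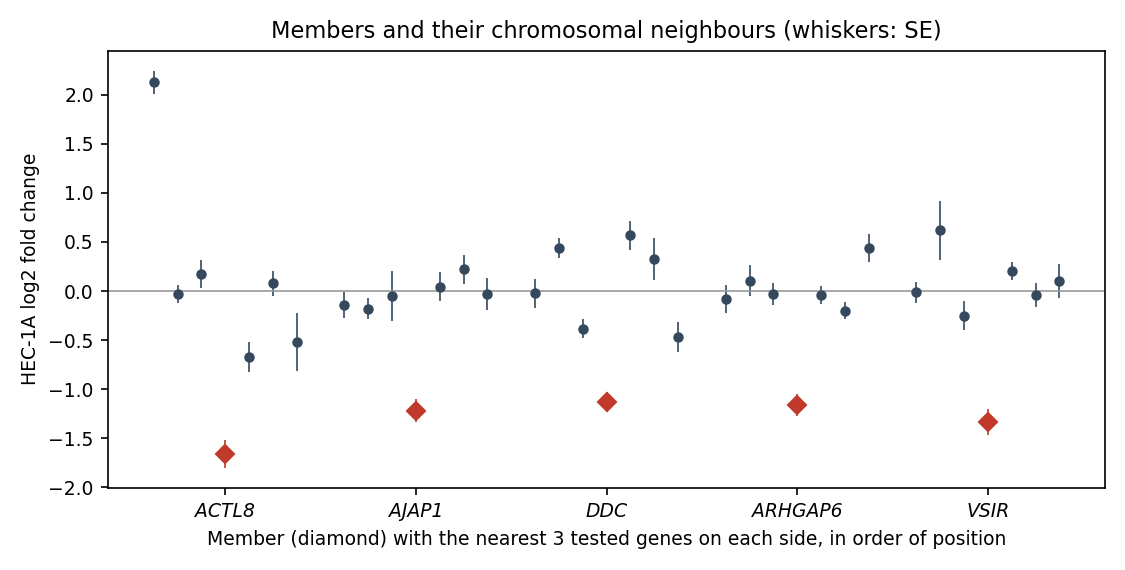
Log2 fold change in HEC-1A (vertical axis, whiskers for the standard error) of the 5 genes (red diamonds) and of the 3 nearest tested genes on each side of each (dark circles), in order of position and not to scale along the chromosome. The neighbours run from -0.67 to 2.12 with a median of -0.03, and none is called lower.

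Across the 12 libraries, the levels of ACTL8, AJAP1 and DDC ran together (Pearson r of log2 CPM 0.987 to 0.996), and ARHGAP6 followed them at 0.945 to 0.972. VSIR stood apart, at 0.037 to 0.286 with the other 4. The 12 libraries share lines and treatments, and 3 of the 5 genes were near 0 in all T-HESC libraries, so these values are a description with no test. Among 16132 genes the closest in pattern to DDC were TRABD2B, P2RY1 and ADORA1 (0.998, 0.997 and 0.997), those closest to AJAP1 were THRB, PARD3 and SEMA3G (0.998, 0.997 and 0.997), and those closest to ACTL8 were RPL7AP75, ENSG00000262681 and MACROH2A1 (0.997, 0.996 and 0.996). ARHGAP6 was most like NOLC1, KCTD1 and ZNF185 (0.993, 0.989 and 0.987). The closest genes to VSIR had lower correlations, with ALDH1B1 at 0.956 and SMAD3 and RNF41 at 0.887 each. A close pattern did not mean an equal drop with AG-205. The HEC-1A log2 fold changes of these closest genes ran from -1.17 for RPL7AP75 to -0.17 for PARD3.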

How the data were processed

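Total RNA of 12 cultures was sequenced. Per the labels and the study's methods, the authors used Trimmomatic 0.38 for trimming and HISAT2 2.1.0 for alignment to GRCh38, and counted reads per Ensembl release 94 gene with featureCounts of Subread 2.0.0, and the deposited values are raw counts per gene. Strand setting and treatment of reads with several matches are not given in the sources used here. Counts held 7168542 to 15178276 reads per library. Groups came from the sample labels. The study's methods state that the RNA came from 3 independent culture experiments.

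Each line was fitted alone with edgeR 4.0.16 in R 4.3.3 (filterByExpr, TMM, quasi-likelihood test, two-sided, Benjamini-Hochberg adjustment over all genes tested), which tested 14122 genes of HEC-1A cells and 13753 of T-HESC cells. Calls needed a log2 fold change beyond 1 and an adjusted p under 0.05. CPM and RPKM were computed here with TMM scaling within a line, using GENCODE 44 exon lengths, and 528 gene IDs had no symbol. The fit was also run on counts simulated with its own estimates of spread, which checks the code and not those estimates. The members and gene lists were chosen with earlier results of these data known. Beside the members, the genes named were the 10 further genes lower in HEC-1A with the smallest p, called or most abundant genes of each list, the 3 nearest genes on each side and the 3 most alike in pattern; further list and neighbour genes were named after their values were seen. Alternatives were DESeq2 1.42.0, other scaling, filters and thresholds, a fit over all 12 libraries, a replicate block and leaving out each library. Some genes and 1 gene list are not reported here.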

Additional observations from a re-analysis of the deposited data

How the results depend on the processing

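The 5 genes kept a log2 fold change below -1 in HEC-1A under all 65 combinations of gene and alternative, from -1.73 to -1.54 for ACTL8 and from -1.20 to -1.02 for DDC. The rule chose the genes from these same HEC-1A libraries, so this is a description and no independent support. The number of genes called lower in HEC-1A was 29, and 605 without the fold limit, 6 in the fit over all 12 libraries (adjusted p = 0.0633 for DDC and 0.130 for VSIR) and 23 to 46 when 1 library was left out (46 without AG-205 replicate 3). Called higher were 364, then 1038, 135 and 285 to 543. In T-HESC 0 genes were called lower, but 21 by DESeq2, 36 when low counts were kept, 27 in the fit over all libraries and 0 to 3 with 1 left out. Called higher were 11, then 107, 145, 133 and 0 to 69 (69 without AG-205 replicate 1), and 0 at an adjusted p under 0.01. VSIR in T-HESC passed only without the filter (-1.30, adjusted p = 0.0168), which made 1 of the 5 genes called. Elsewhere it ran from -1.78 (without AG-205 replicate 3) to -1.01, and ARHGAP6 from -0.93 to -0.56. The cause of these shifts was not tested. The study's methods name 3 independent culture experiments, so libraries of different groups may share an experiment. Neither the methods nor the labels say whether equal replicate numbers mark a shared one, and the main fit was unpaired. Deviations from group means in same-number AG-205 and DMSO libraries correlated at -0.102, 0.303 and 0.001 in HEC-1A. In T-HESC the values were 0.181, -0.565 and -0.028. With 3 libraries per group these correlations cannot decide whether the numbers pair the samples. With a replicate block calls in HEC-1A were 28 lower and 335 higher, those in T-HESC 0 and 9, and VSIR was at -1.37 and ARHGAP6 at -0.74 there. ACTL8, AJAP1 and DDC had at most 4 counts per library in T-HESC, failed the filter there and did not pass without it (adjusted p = 0.842, 0.902 and 0.895).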
